A study of Homo sapiens with 12 samples.

Results

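The comparison described here asks how RNA levels differed when a phosphomimetic change of tau, S199E, was added to tau that already carried K174Q. It set 3 libraries of cells transfected with Tau-K174Q-S199E (libraries 16, 17 and 18) against 3 libraries of cells transfected with Tau-K174Q (libraries 4, 5 and 6), which are 6 of the 12 libraries of the study, over all 1676 genes of the deposited table. Both groups therefore carried K174Q, and only S199E differed between them. The remaining libraries are 3 of wild-type tau (Tau-WT, the reference of the study) and 3 of Tau-S199E without K174Q, and they enter below only where stated. All were cells of SH-SY5Y, an established neuroblastoma line of human origin taken from a bone metastasis, whose RNA was extracted 24 h after transfection and sequenced near the 3′ ends of polyadenylated transcripts. Transfection here means that the construct was given to a culture and not to a cloned line. No source used here gives the promoter, the tau isoform or the share of transfected cells.

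The deposited values are z-scores. Each gene was centred and scaled over the 12 libraries, so that its mean is 0 and its standard deviation 1, and all levels and differences below are in these SD units. They say in which libraries a gene was high or low relative to itself, and not by how many fold, and the depth behind them is unknown. The table holds genes that its authors had already selected by an adjusted p-value, at most 0.0499, for a contrast that the header does not name. Shares of these genes are therefore shares of a selected list and not of the transcriptome. In bulk RNA, fewer cells of a type and less RNA per cell cannot be told apart. Nothing in the labels says that the replicates came from separate cultures, so every p-value reflects the spread among these libraries alone, and that spread may be technical.

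Tau, the product of MAPT, is a microtubule-associated protein of neurons that is regulated by phosphorylation at many serines and threonines and by acetylation of lysines, and that also occurs in the nucleus. Replacing lysine by glutamine removes the positive charge and is used to mimic an acetylated lysine. Replacing serine by glutamate adds a negative charge and is used to mimic a phosphorylated serine. Both altered residues lie in the proline-rich part of tau, ahead of the microtubule-binding repeats.

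The reference coding sequence around both residues is shown because it is the only designed difference between the 4 constructs. It was read from GRCh38 with the GENCODE 29 annotation of the MAPT transcript that encodes 441 residues, and it runs from codon 171 to codon 202 on the plus strand of chromosome 17, with the codons altered in K174Q and in S199E in capitals. It is the genome reference and not the sequence of the plasmids.
MAPT codons 171 to 202: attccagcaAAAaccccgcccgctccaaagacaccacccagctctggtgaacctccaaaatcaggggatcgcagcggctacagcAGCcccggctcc
The first, AAA for lysine, lies at positions 45991550 to 45991552 in exon 7 of the 12 exons of this transcript, counted with untranslated exons. The other, AGC for serine, lies at positions 45996437 to 45996439 in exon 8 by the same count. The groups compared here differ at the serine codon only.

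Library 18 stood apart from the other libraries of its own construct, and it lay close to the libraries without S199E. Its root mean square distance over the 1676 genes was 0.45 to the mean of the Tau-K174Q libraries and 1.35 to the mean of libraries 16 and 17. It lay from the mean of libraries 16 and 17 toward the Tau-K174Q mean in 1623 genes (96.8%). It was nearer to the Tau-K174Q mean than to the mean of libraries 16 and 17 in 1517 genes (90.5%). The same measure, nearer to the other construct than to the remaining libraries of its own, gave 390 genes (23.3%) for library 16, 404 (24.1%) for library 17 and 231, 316 and 745 genes for libraries 4, 5 and 6. Across genes, which are not independent replicates and share their scaling, Pearson's r was 0.56 between libraries 16 and 17, -0.67 between 16 and 18, and -0.61 between 17 and 18. For library 18 it was 0.70, 0.57 and 0.36 with libraries 4, 5 and 6. Libraries 16 and 17 in turn lay nearest to the mean of Tau-WT, at 0.68 and 0.73, among the means compared. The mean of the remaining libraries of their own construct lay at 1.16 and 0.79. That mean includes library 18, here and in the counts for libraries 16 and 17 above, which raises these distances and counts. The counts for libraries 4, 5 and 6 were likewise taken against a Tau-K174Q-S199E mean that includes library 18. Without library 18, the distances of libraries 4, 5 and 6 to that mean went from 1.05, 0.90 and 0.73 to 1.46, 1.29 and 1.10. Library 18 thus went against its label in this table, so the results below are given with and without it wherever a statement rests on it.

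**Figure D1:**
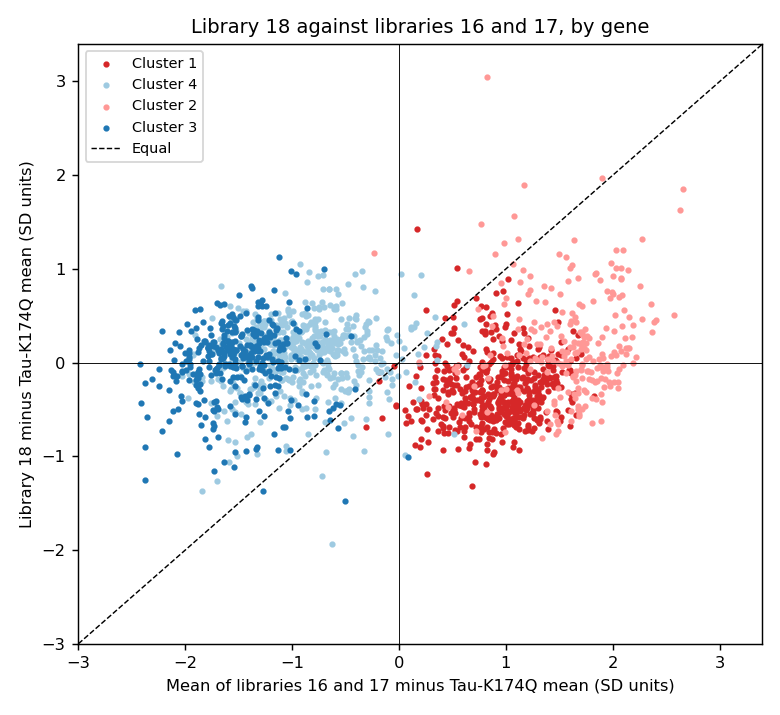
Each point is a gene, coloured by the authors' cluster, with the mean of libraries 16 and 17 minus the Tau-K174Q mean on the x axis and library 18 minus the Tau-K174Q mean on the y axis, both in SD units. Genes in which library 18 matched its construct would lie on the dashed line, and most lie instead near 0 on the y axis, nearer to the Tau-K174Q mean in 1517 of 1676 genes.

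MAPT itself, the transfected gene, lies on chromosome 17 from 45894382 to 46028334 in GRCh38. Its z-scores were -0.49, -0.51 and -0.57 in libraries 4, 5 and 6 and -0.59, 2.54 and 0.64 in libraries 16, 17 and 18. The Tau-K174Q libraries lay within a narrow band, library 17 was the highest, and library 16 fell just under the Tau-K174Q libraries, so that the groups overlapped. The difference of the means, Tau-K174Q-S199E minus Tau-K174Q, was 1.39 (SE 0.73, limma adjusted p = 0.456, exact permutation p = 0.4). It was 1.5 without library 18 (exact permutation p = 0.4), 2.11 without library 16 and 0.55 without library 17. A 3′ library counts endogenous and transfected MAPT together only where the construct keeps the endogenous 3′ end, which is not stated, so this value is no check of the labels.

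Over the whole table, no gene passed the test with all libraries, and 142 genes passed it when library 18 was left out. Library 18 stands out by its values in this same table, and leaving it out tends to narrow the spread within its construct. The genes were also already selected. Adjusted p-values without library 18, here and below, are therefore likely too small, and genes said to rise or fall on them are described for those libraries only. In the limma model with each gene's own variance over all 12 libraries, 0 of 1676 genes (0%) had an adjusted p below 0.05, and 138 had an unadjusted p below it. Limma's moderated variances called 2 genes (0.119%), NCBP1 and NRP1, both higher with S199E, and weights estimated for each library called 978 (375 higher and 603 lower) by giving weights of 0.28, 4.69 and 0.15 to libraries 16, 17 and 18. The iterations behind those weights stopped before they met their tolerance. Without library 18, 52 genes rose (3.1%) and 90 fell (5.37%), or 8.47% of the table in all. With moderated variances, a setting added after the data were seen, 272 genes rose (16.2%) and 359 fell (21.4%) without library 18, or 37.6%. The direction of the difference was the same with and without library 18 in 1638 genes and turned in 38, and it was larger in size without it in 1614. The median absolute difference was 0.71 with all libraries and 1.12 without library 18.

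A count of genes without overlap needs no model. The 3 Tau-K174Q-S199E libraries lay entirely above the 3 Tau-K174Q libraries in 87 genes (5.19%) and entirely below them in 100 (5.97%), 187 genes in all (11.2%). Label order alone separates 3 from 3 libraries in a share of 0.1 of the possible orders, which is close to this 11.2%. Without library 18 the remaining 5 libraries did not overlap in 503 genes above (30%) and 692 below (41.3%), or 71.3% of the table. Smaller groups fail to overlap more often by label order alone, and these 1195 include the 187 by construction. Of the 142 genes called without library 18, 36 also had no overlap among the 6 libraries. The mean difference was above 0 in 797 genes (47.6%) and below 0 in 879 (52.4%), with a median of -0.13 with all libraries and -0.21 without library 18.

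The authors' 4 clusters split the genes by direction. They come with this table of z-scores and may have been drawn from it. A direction shared by the genes of a cluster can then restate the grouping, and the counts and tests of cluster means are given as a description. Adding S199E to K174Q tau went with higher values in clusters 1 and 2 and with lower values in clusters 3 and 4, and the clusters that differed most were 2 and 3. Cluster 2 (255 genes) averaged -0.75, -0.64 and -0.47 in libraries 4, 5 and 6 and 1.18, 0.75 and -0.40 in libraries 16, 17 and 18. Its groups did not overlap, although library 18 exceeded library 6 by little. The group means were -0.62 ± 0.14 (SD, n = 3) with K174Q and 0.51 ± 0.82 (SD, n = 3) with both changes, a difference of 1.13 (exact permutation p = 0.1, the smallest that 3 against 3 libraries can give), and 1.58 without library 18. All 255 genes of this cluster had a mean difference above 0. No overlap was found in 66 of the 255, beside 5.19% of the table on the higher side. Without library 18, 47 of the 255 rose, beside 3.1% of the table.

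Cluster 3 (353 genes) was the mirror case. It averaged 0.92, 0.72 and 0.50 in libraries 4, 5 and 6 and -0.74, -0.83 and 0.70 in libraries 16, 17 and 18. Libraries 16 and 17 lay far below the Tau-K174Q libraries, and library 18 lay within their range. The means were 0.71 ± 0.21 and -0.29 ± 0.86 (SD, n = 3 each), a difference of -1.0 (exact permutation p = 0.2) that became -1.5 without library 18 (exact permutation p = 0.1, the smallest that 2 against 3 can give). All 353 genes had a mean difference below 0, and 76 of the 353 fell without library 18, beside 5.37% of the table.

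Clusters 1 and 4, the larger ones, differed less. Cluster 1 (535 genes) averaged -0.42, -0.18 and 0.05 in libraries 4, 5 and 6 and 1.15, 0.29 and -0.48 in libraries 16, 17 and 18. Library 18 was the lowest of the 6 there and library 16 the highest. The difference was 0.50 (exact permutation p = 0.5), 0.90 without library 18 and 0.09 without library 16, so its size depended on which library was used. Cluster 4 (533 genes) averaged 0.35, 0.20 and -0.05 in libraries 4, 5 and 6 and -0.84, -0.58 and 0.25 in libraries 16, 17 and 18. The difference was -0.56 (exact permutation p = 0.3), -0.88 without library 18 and -0.33 without library 16. In these clusters 507 of 535 and 498 of 533 genes had the direction of the cluster. Only 5 and 14 genes were called without library 18, beside 8.47% of the table.

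**Figure D2:**
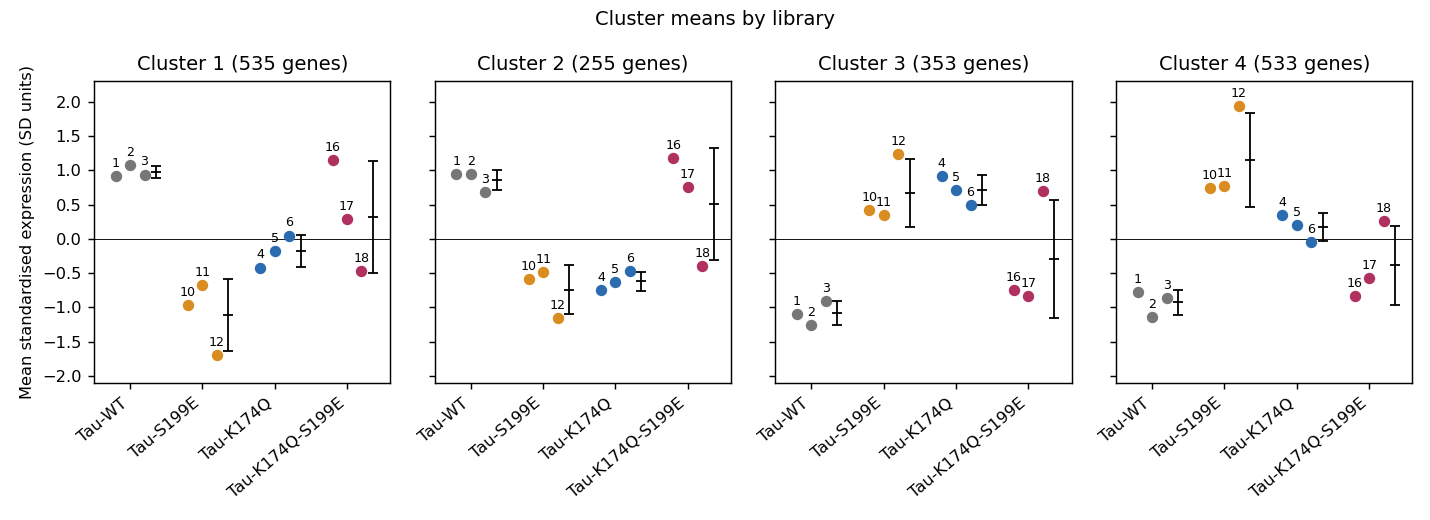
Mean z-score of each of the authors' 4 clusters in every library (points, labelled by library number), by construct, in SD units, with bars for the mean and SD of 3 libraries. In clusters 2 and 3 libraries 16 and 17 lie on the far side of the Tau-K174Q libraries, and library 18 lies at -0.40 and 0.70, beside them.

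Among the genes that had no overlap, the largest differences upward were in NCBP1 and NRP1. NCBP1 (chromosome 9, 97633626 to 97673748) encodes the large subunit of the nuclear cap-binding complex, which holds the cap of new transcripts during splicing and export. Its z-scores were -1.44, -1.33 and -1.51 in libraries 4, 5 and 6 and 1.56, 0.90 and 0.43 in libraries 16, 17 and 18. Every library with both changes lay well above every library with K174Q alone, library 18 included. The difference was 2.39 (SE 0.38, limma adjusted p = 0.405, or 0.0339 with moderated variances) and 2.66 without library 18 (adjusted p = 0.027). NCBP1 differed little between Tau-S199E and Tau-WT, by -0.14. NRP1 (chromosome 10, 33177492 to 33336262) encodes neuropilin 1, a co-receptor for semaphorins and vascular endothelial growth factor in axon guidance and vessel growth. Its z-scores were -1.08, -1.40 and -1.15 in libraries 4, 5 and 6 and 1.07, 1.76 and 0.41 in libraries 16, 17 and 18. The groups were again apart with a wide gap. The difference was 2.29 (SE 0.41, limma adjusted p = 0.419, or 0.0364 with moderated variances) and 2.63 without library 18 (adjusted p = 0.027).

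Other genes of RNA handling lay on both sides. XRN2, the nuclear 5′-to-3′ exonuclease of transcription termination, had -0.90, -1.36 and -0.99 in libraries 4, 5 and 6 and 1.77, 0.83 and -0.65 in libraries 16, 17 and 18, with a difference of 1.74, and it rose by 2.39 without library 18 (limma adjusted p = 0.0301). TBL3, a component of the small-subunit processome that matures ribosomal RNA, had -1.31, -1.07 and -0.48 against 1.51, 1.13 and 0.37. TBL3 kept a clear gap in all 6 libraries, with a difference of 1.96 (SE 0.52), and just missed the threshold without library 18 (2.27, adjusted p = 0.0521). Lower values were found for NSUN2, a methyltransferase that places 5-methylcytosine on transfer RNAs and other RNAs, at 0.98, 1.36 and 0.99 against -0.93, -1.47 and 0.94. DHX38, the splicing helicase also called PRP16, had 1.2, 1.2 and 0.97 against -1.24, -1.01 and 0.88. GTF3C1, the largest subunit of the RNA polymerase III factor TFIIIC, had 1.13, 0.97 and 0.96 against -1.91, -0.79 and 0.80. In these 3 genes the non-overlap rested on a narrow margin between library 18 and the lowest Tau-K174Q library. Their differences were -1.60, -1.58 and -1.65, and without library 18 they fell by 2.31 (adjusted p = 0.0259), 2.25 (adjusted p = 0.0301) and 2.37 (adjusted p = 0.0403), all by limma.

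Genes of the nuclear envelope, of cytoplasmic dynein and of signalling were also among the non-overlapping genes. LMNA, which encodes the A-type lamins under the nuclear membrane, had -0.62, -0.27 and -0.80 in libraries 4, 5 and 6 and 1.71, 1.88 and 0.07 in libraries 16, 17 and 18. Libraries 16 and 17 were far above the rest, the difference was 1.78, and LMNA rose by 2.36 without library 18 (limma adjusted p = 0.0301). DYNC1LI2, a light intermediate chain of dynein, had -1.42, -1.27 and -0.45 against 1.07, 1.12 and -0.06 with a difference of 1.76 and rose by 2.14 without library 18 (limma adjusted p = 0.0403). ACTR10, a subunit of dynactin, the partner complex of dynein, lay the other way at 1.11, -0.03 and 0.77 against -0.56, -1.62 and -0.65. Library 18 sided with libraries 16 and 17 in ACTR10, and the difference was -1.56 (SE 0.41) with all libraries and -1.70 (adjusted p = 0.0647) without library 18. PEA15, a small adaptor that binds ERK and death-effector proteins, had -1.0, -1.24 and -0.85 against 1.97, 0.13 and -0.01 with a difference of 1.72 and rose by 2.08 without library 18 (limma adjusted p = 0.0447), with library 16 well above the other libraries.

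Enzymes and mitochondrial proteins among these genes lay on both sides. FLAD1, which makes flavin adenine dinucleotide, had -1.55, -0.91 and -0.84 in libraries 4, 5 and 6 and 1.82, 1.12 and -0.59 in libraries 16, 17 and 18, with a difference of 1.88, and it rose by 2.57 without library 18 (limma adjusted p = 0.0333). PTDSS2, a phosphatidylserine synthase, had a difference of 1.76 and rose by 2.41 without library 18 (limma adjusted p = 0.027). In both, libraries 16 and 17 were high and library 18 lay just above the Tau-K174Q libraries. FMC1, an assembly factor of the mitochondrial ATP synthase, had 1.13, 1.11 and 1.28 against -1.35, -1.14 and 0.74. The 3 Tau-K174Q values of FMC1 agreed within an SD of 0.09, its difference was -1.76, and it fell by 2.42 without library 18 (limma adjusted p = 0.0216). MMADHC, of intracellular cobalamin handling, had 1.31, 1.06 and 0.56 against -1.42, -1.07 and 0.25, and its difference was -1.72, or -2.22 without library 18 (limma adjusted p = 0.0502). GBE1, the glycogen branching enzyme, had 1.23, 1.01 and 0.56 against -1.73, -0.63 and 0.42 with a difference of -1.58 and fell by 2.11 without library 18 (limma adjusted p = 0.0403). MRPS11, a mitochondrial ribosomal protein, had 1.27, 0.50 and 1.09 against -0.76, -0.81 and -0.20, with library 18 on the side of its own construct, a difference of -1.54 (SE 0.45) and an adjusted p of 0.0714 without library 18.

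The other non-overlapping genes among the 12 largest each way were AL031777.3 (1.92), C2orf68 (1.80) and ZNF672 (1.75) on the higher side, and LYPLAL1 (-1.71), SLC2A4RG (-1.69), CYB561D2 (-1.64) and ITGAE (-1.54) on the lower side. AL031777.3 differed from most in that library 18, at 1.02, was as high as libraries 16 and 17, at 1.01 and 0.89. Of these 7 genes CYB561D2 passed the test without library 18, at -2.15 (limma adjusted p = 0.0447). With all libraries, every gene named among the 12 largest each way other than NCBP1 and NRP1 had a limma adjusted p of 0.456.

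**Figure D3:**
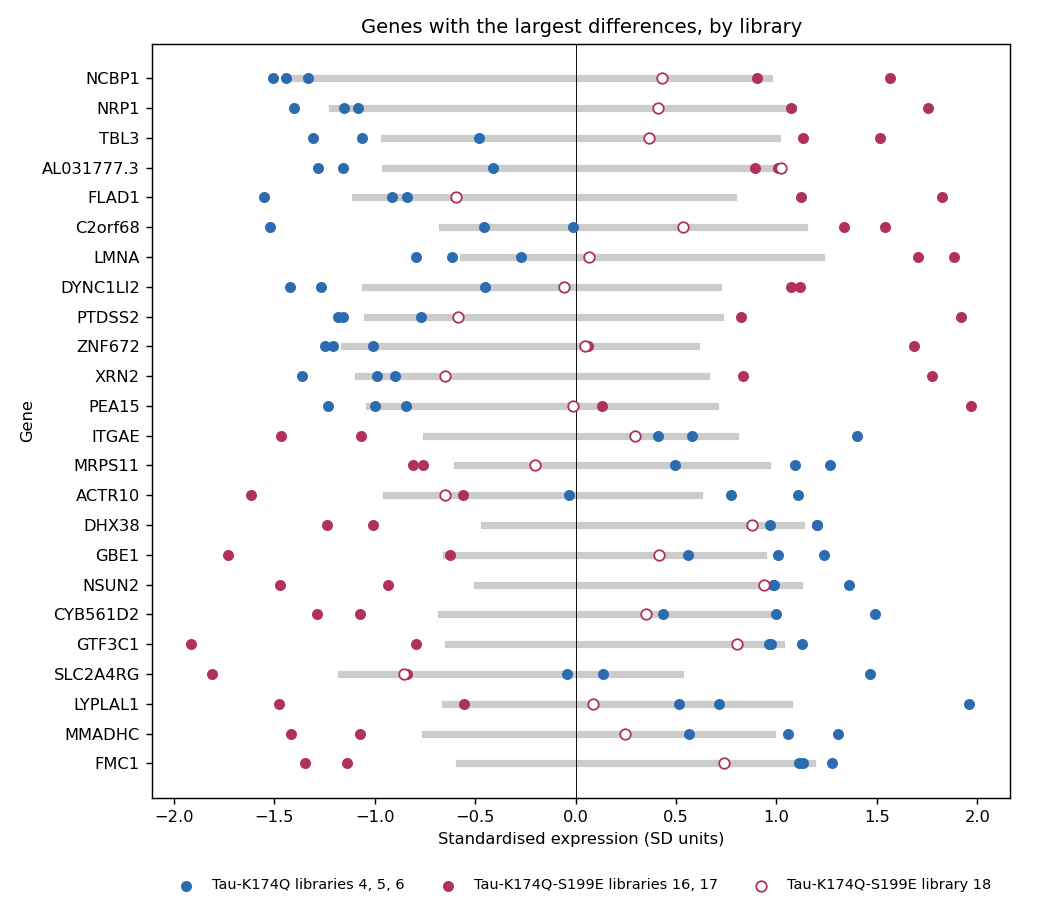
z-score, in SD units, of the named genes in each Tau-K174Q and Tau-K174Q-S199E library, with library 18 as open points and a grey bar joining the group means. In NCBP1 and NRP1 library 18 (0.43 and 0.41) stays far above all Tau-K174Q libraries, whereas in DHX38 and NSUN2 (0.88 and 0.94) it lies just under them.

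The fit without library 18 is described next by its leading genes. The 6 genes of smallest adjusted p in that fit, named after their values were seen, were all lower. They were C8orf88, FMC1, ABL1, FAM83D, PIP4K2C and DUSP11, and in all but FMC1 library 18 reached the range of the Tau-K174Q libraries or lay above it. C8orf88 had 1.08, 0.83 and 0.80 in libraries 4, 5 and 6 and -1.59, -1.45 and 0.89 in libraries 16, 17 and 18, and it fell by 2.42 (SE 0.22, limma adjusted p = 0.0183). ABL1, a tyrosine kinase of cytoskeletal and DNA damage signalling, had 0.81, 1.26 and 0.62 against -1.64, -1.0 and 1.23 and fell by 2.22 (SE 0.27, limma adjusted p = 0.0216). In both, library 18 could not be told from the Tau-K174Q libraries by its value. FAM83D, PIP4K2C, a phosphatidylinositol-5-phosphate kinase, and DUSP11, an RNA 5′-triphosphatase, fell by 1.99, 2.09 and 1.5, each with a limma adjusted p of 0.0216.

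Further genes with large differences in the 5 libraries covered amino acid metabolism, the proteasome and metal binding. OAT, the ornithine aminotransferase of mitochondria, had 1.41, 1.04 and 0.70 in libraries 4, 5 and 6 and -0.94 and -1.45 in libraries 16 and 17, and fell by 2.24 (limma adjusted p = 0.027), while library 18 stood at 0.98. ASL, the argininosuccinate lyase of the urea cycle, had -0.15, -0.92 and -0.42 against 1.33 and 2.12 and rose by 2.22 (adjusted p = 0.0403), while library 18 stood at -0.43. PSME2, an activator subunit of the proteasome, rose by 2.36 (adjusted p = 0.0403), and ERC1, a scaffold of the cell cortex and presynaptic active zone, rose by 2.19 (adjusted p = 0.027). RNF181, a ubiquitin ligase, and CCDC142 rose by 2.18 (adjusted p = 0.042) and 2.15 (adjusted p = 0.0403). On the lower side TNFAIP8 (-2.38), ZDHHC8, a protein palmitoyltransferase (-2.36), MT1E, a metallothionein (-2.15), the protease PRSS23 (-2.14) and the actin-binding protein COTL1 (-2.14) also passed by limma, with adjusted p between 0.0358 and 0.0435. ATE1 (2.26, adjusted p = 0.0714), XRRA1 (2.19, adjusted p = 0.0646) and FADS1 (2.15, adjusted p = 0.055) were as large but did not pass with each gene's own variance.

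The genes in which library 18 lay furthest from libraries 16 and 17 are described without a test. ABL1 (library 18 above the mean of both by 2.55), SYVN1 (2.48), SNX7 (2.43), C8orf88 (2.41) and FAM83D (2.39) led on the higher side. SYVN1, a ubiquitin ligase of endoplasmic reticulum-associated degradation, had -1.08, -1.49 and 1.19 in libraries 16, 17 and 18 beside 0.89, 0.31 and 0.68 in libraries 4, 5 and 6. In SYVN1 library 18 lay not merely among the Tau-K174Q libraries but above them. PRPF6 (-2.51), ERP29 (-2.45), DCXR (-2.32), AHNAK2 (-2.31), RPSA (-2.25) and SUMF2 (-2.25) led on the lower side. ERP29, a chaperone of the endoplasmic reticulum, had 1.24, 0.74 and -1.46 in libraries 16, 17 and 18 beside -0.92, -0.65 and -0.86, and PRPF6, a protein of the U4/U6-U5 spliceosome, had 1.21, 1.28 and -1.26 beside -1.14, -0.66 and -0.14. Here library 18 lay below every Tau-K174Q library.

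The gene lists were read as counts against the table, where the median difference was -0.13 with all libraries and -0.21 without library 18, and where 3.1% and 5.37% of genes were called higher and lower without library 18. Enzymes and regulators of sterol and fatty acid synthesis were mostly lower. Of 34 such genes 10 were in the table, 8 had a difference below 0 and 2 above, and the median was -0.74 (-1.05 without library 18). IDI1, the isopentenyl diphosphate isomerase of sterol synthesis, had 1.03, 0.32 and 0.78 in libraries 4, 5 and 6 and -0.39, -1.06 and 0.13 in libraries 16, 17 and 18, which did not overlap, with a difference of -1.15 (SE 0.66), or -1.43 without library 18 (limma adjusted p = 0.177). NSDHL (0.45, or 0.77 without library 18) and FADS1 (1.48, or 2.15), a fatty acid desaturase, lay the other way, and 2 of the 10 genes fell without library 18.

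Genes of the integrated stress response and the unfolded protein response were 6 above and 4 below 0 among the 10 of 40 in the table, with a median of 0.39 (0.93 without library 18). The list's mean was -0.20, 0.12 and 0.01 in libraries 4, 5 and 6 and 0.93, -0.21 and 0.10 in libraries 16, 17 and 18, so that library 16 alone was above the Tau-K174Q range. DDIT3, the transcription factor CHOP induced by either response (chromosome 12, 57516588 to 57521737), had -1.22, -0.07 and -0.45 in libraries 4, 5 and 6 and 2.0, 0.79 and 0.48 in libraries 16, 17 and 18. All its libraries with both changes lay above those with K174Q alone, with a difference of 1.67 (SE 0.44), and it rose by 1.98 without library 18 (limma adjusted p = 0.0447). SESN2, a stress-induced inhibitor of mTORC1 signalling, had -0.76, 0.36 and -0.61 against 2.0, 0.50 and 0.54, a difference of 1.35 (SE 0.53) that did not pass without library 18 (adjusted p = 0.104). MANF, a factor secreted under endoplasmic reticulum stress, lay the other way at 0.84, 0.75 and 0.68 against -0.62, -1.26 and 1.40, and fell by 1.70 without library 18 (limma adjusted p = 0.0403). PSAT1, of serine synthesis, was at -0.76 (-1.32 without library 18). By limma with each gene's own variance, 1 gene of the list rose and 1 fell without library 18, beside 3.1% and 5.37% of the table.

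Translation genes, of interest because the study's title names protein synthesis, showed no shared direction. Cytosolic ribosomal proteins were 13 above and 20 below 0 among 33 of 88 in the table, with a median of -0.32 (-0.54 without library 18), and limma with each gene's own variance called none in either fit. With moderated variances and without library 18, 4 rose and 2 fell, beside 16.2% and 21.4% of the table, so the list was called less often than the table. RPL23 and RPL7A were at -1.01 and -0.99 (-1.55 and -1.43 without library 18). Translation factors were 12 above and 11 below among 23 of 56, with a median of 0.00 (0.37 without library 18). EIF2S2, the beta subunit of the factor that brings the initiator transfer RNA, had -0.54, -0.41 and -0.18 in libraries 4, 5 and 6 and 2.01, 1.02 and -0.54 in libraries 16, 17 and 18, and rose by 1.89 without library 18 (limma adjusted p = 0.0403). EEF1A1, which delivers aminoacyl transfer RNA to the ribosome, had 1.02, 0.85 and 0.63 against -0.50, -1.25 and 1.0 and fell by 1.71 (adjusted p = 0.0403). In both of these genes library 18 matched the Tau-K174Q side. Ribosome biogenesis genes were 9 above and 9 below among 18 of 69, and aminoacyl-tRNA synthetases 2 above and 4 below among 6 of 39.

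Mitochondrial lists are set beside the table, where 52.4% of genes were below 0. Mitochondrial ribosomal proteins were 9 above and 15 below 0 (24 of 80, median -0.46) and subunits of oxidative phosphorylation encoded in the nucleus 11 above and 19 below (30 of 81, median -0.38). By limma with each gene's own variance, 1 gene of each list passed without library 18, and both were higher. The share of the table called higher in that fit was 3.1%. MRPS18A rose by 1.68 (limma adjusted p = 0.04), and NDUFV1, which carries the NADH-binding site of complex I, had -0.61, -0.76 and -0.51 in libraries 4, 5 and 6 and 1.23, 1.76 and -0.54 in libraries 16, 17 and 18 and rose by 2.13 (limma adjusted p = 0.0403). Import proteins were 4 above and 7 below (11 of 34, median -0.30), with TOMM5 at -1.16 (-1.53 without library 18), TIMM9 at -1.10 (-1.53), GRPEL1 at 0.47 (0.88) and TIMM8B at 0.66 (1.25), none of which passed that test.

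**Figure D4:**
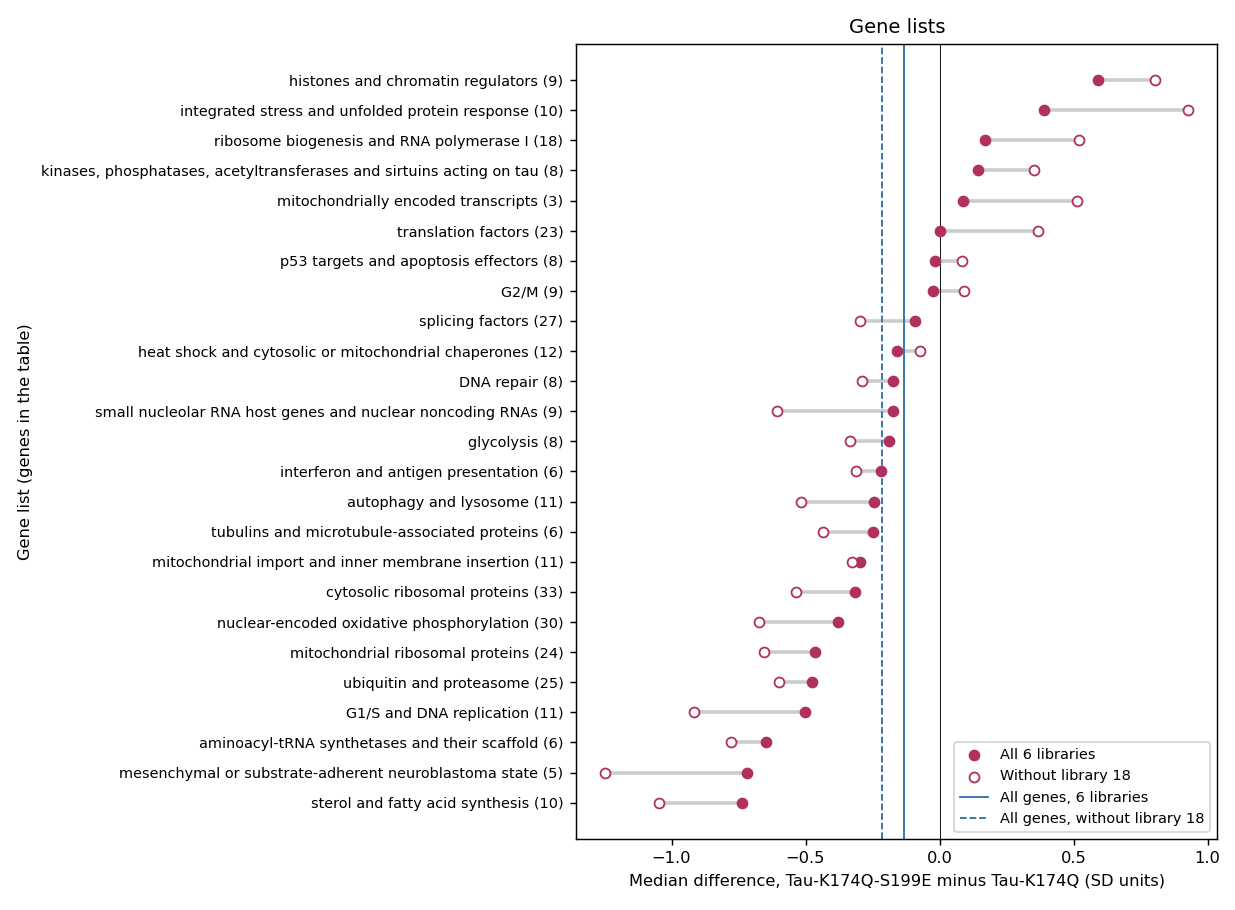
Median difference, Tau-K174Q-S199E minus Tau-K174Q in SD units, of each gene list with 3 or more genes in the table, with all 6 libraries (filled) and without library 18 (open), beside lines for the table's medians of -0.13 and -0.21. Sterol and fatty acid synthesis (-0.74) is lowest and the chromatin list (0.59) highest with all libraries.

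Lists tied more closely to tau were small in this table. Of 40 tau kinases, phosphatases, acetyltransferases and related enzymes, 8 were listed, 5 above and 3 below 0, with a median of 0.14 (0.35 without library 18). PPP2R1A, the scaffold of protein phosphatase 2A, the main tau phosphatase in brain, had 0.55, 0.26 and 0.24 in libraries 4, 5 and 6 and -1.19, -0.87 and 0.07 in libraries 16, 17 and 18. Its groups did not overlap, with a difference of -1.01 (SE 0.42) and an adjusted p of 0.0667 without library 18. OGT, the O-GlcNAc transferase, had 0.78, 0.53 and 0.31 against -1.32, -0.69 and 0.93 and fell by 1.55 without library 18 (limma adjusted p = 0.0435). CREBBP, which encodes the acetyltransferase CBP named in the study's title, was at 0.59, or 1.02 without library 18 and 0.06 without library 16. PPP1CA, a catalytic subunit of protein phosphatase 1, was at 0.58, or 1.04 without library 18 and 0.12 without library 16. Neither passed with or without library 18. Of 36 tubulins and microtubule-associated proteins 6 were listed, 1 above and 5 below 0, with a median of -0.25 (-0.44 without library 18). Limma with each gene's own variance called none of them in either fit. With moderated variances and without library 18, MAP1LC3B passed (adjusted p = 0.012), beside 37.6% of the table. This gene is also on the list of autophagy and lysosome genes, so its value is not particular to microtubules. MAP1LC3B was at -1.16 (-1.78 without library 18), TUBA1A at -0.44 (-0.68) and TUBB6 at 0.35 (0.78).

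Chromatin genes were 6 above and 3 below 0 among the 9 in the table, with a median of 0.59 (0.80 without library 18), and 3 lay above the Tau-K174Q libraries without overlap, beside 5.19% of the table. None passed limma with each gene's own variance. With moderated variances and without library 18, BRD2 and EED did (adjusted p = 0.00551 and 0.0343), beside 37.6% of the table. BRD2, a bromodomain protein that binds acetylated histones, had -0.85, -0.91 and -1.23 in libraries 4, 5 and 6 and 1.76, 0.42 and -0.27 in libraries 16, 17 and 18, a difference of 1.63 (SE 0.60) and an adjusted p of 0.0662 without library 18. CHD3, a remodelling subunit, was at 0.87 (1.22 without library 18), and EED, of the Polycomb repressive complex, at -0.97 (-1.42). Genes of the G1 and S phases were 4 above and 7 below (11 of 45, median -0.50), and they split within the replicative helicase. MCM3 had -1.21, -1.21 and -0.42 against 0.88, 1.11 and -1.0 and rose by 1.94 without library 18 (limma adjusted p = 0.0374), whereas its partner MCM2 was at -1.09 (-1.70 without library 18, adjusted p = 0.0541). Of the p53 and apoptosis list 4 were above and 4 below (8 of 34), with a median of -0.02 (0.08 without library 18). By limma with each gene's own variance, 2 of the 8 fell and 0 rose without library 18, beside 5.37% and 3.1% of the table. MCL1, a survival factor of the BCL2 family, had 0.78, 0.64 and 0.21 against -1.26, -0.72 and 0.91 and fell by 1.54 without library 18 (limma adjusted p = 0.0301), and CASP9, the initiator caspase of the same pathway, fell by 1.65 (adjusted p = 0.0435).

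The remaining lists are given by their counts, and calls here are those of the limma fit with each gene's own variance. Ubiquitin and proteasome genes were 10 above and 15 below 0 (25 of 76, median -0.48), autophagy and lysosome genes 5 and 6 (11 of 52), heat shock genes 6 and 6 (12 of 35), glycolysis genes 3 and 5 (8 of 22), DNA repair genes 3 and 5 (8 of 40) and G2 and M phase genes 4 and 5 (9 of 41). Small nucleolar RNA host genes were 3 above and 6 below (9 of 33), interferon-response genes 2 and 4 (6 of 29), and the 2 immediate early genes listed were both below 0. Splicing genes were 12 above and 15 below (27 listed), and without library 18 1 of them rose and 3 fell, beside 3.1% and 5.37% of the table. PRPF6 rose by 1.89 (limma adjusted p = 0.0403), and the Sm protein gene SNRPF fell by 1.96 (adjusted p = 0.0471). The other two that fell, named after their values were seen, encode heterogeneous nuclear ribonucleoproteins, HNRNPA3 (by 1.89, adjusted p = 0.0259) and HNRNPF (by 1.77, adjusted p = 0.0403). PTBP2, the neuronal relative of the polypyrimidine tract-binding protein, was at 1.53 with all libraries and 1.64 without library 18 (adjusted p = 0.121). Genes encoded by the mitochondrial genome were 2 above and 1 below. Of 32 markers of the adrenergic neuroblastoma state none was in the table, so the labelled line could not be checked on its defining genes here. Of 32 markers of the mesenchymal or substrate-adherent state 5 were listed, 1 above and 4 below 0, and the list's mean lay between 0.13 and 0.27 in the Tau-K174Q libraries and at -0.44, -0.65 and 0.29 in libraries 16, 17 and 18. CD44 had 0.09, 0.37 and 0.21 against -0.97, -1.39 and 0.23, with a value of -1.41 without library 18 (limma adjusted p = 0.051). The part of that marker list in the other results was not tested.

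Noncoding genes leaned the other way from the table. Of 45 noncoding RNA genes 32 had a difference above 0 and 13 below, with a median of 0.47 (0.77 without library 18), against 741 above and 844 below among 1585 protein-coding genes, with a median of -0.17 (-0.28 without library 18). Of the 45, 3 lay above the Tau-K174Q libraries without overlap and 1 below, beside 5.19% and 5.97% of the table. The list of small nucleolar RNA host genes and nuclear noncoding RNAs went against this lean, with 3 above and 6 below 0. Its median was -0.18 (-0.61 without library 18). The 46 pseudogenes were 24 above and 22 below, with a median of 0.07. Reads of pseudogenes and of their parent genes can be hard to separate in 3′ data, so these counts are uncertain.

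Finally, the effect of S199E in the presence of K174Q was set beside its effect without it. The contrast Tau-S199E minus Tau-WT has the opposite sign in 1613 of the 1676 genes and the same sign in 63. It is larger in size in 1589 of them (1416 without library 18), with a median absolute difference of 1.99 against 0.71. In the cluster means Tau-S199E minus Tau-WT was -2.08, -1.60, 1.75 and 2.08 for clusters 1 to 4, beside 0.50, 1.13, -1.0 and -0.56 in the presence of K174Q. The deposited fold change has the sign of Tau-K174Q-S199E minus Tau-K174Q in the same number of genes, 1613, and opposes it in 63. Of the genes it opposes 60 have a symbol, and in all 60 both S199E differences share their sign. For these genes the exceptions to both comparisons are thus the same. The unnamed contrast leaves unsettled whether the genes were selected for the difference between both S199E effects. If they were, opposite signs restate that selection and are given as a description only. The genes may instead have been picked by the contrast without K174Q. A list made in that way favours genes in which that contrast is large. The sizes, in genes and in cluster means, therefore do not show that S199E acted less in the presence of K174Q.

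**Figure D5:**
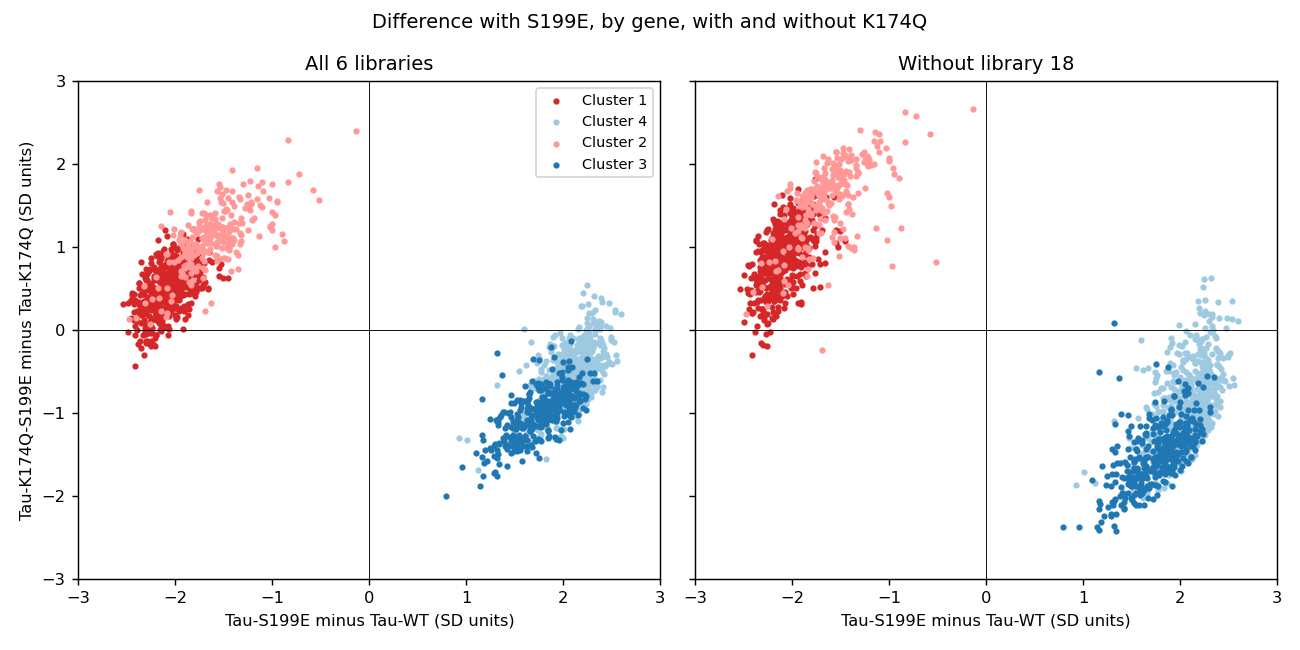
Difference made by S199E in the presence of K174Q (y axis, Tau-K174Q-S199E minus Tau-K174Q) against its difference without K174Q (x axis, Tau-S199E minus Tau-WT), in SD units, 1 point per gene coloured by cluster, with all 6 libraries (left) and without library 18 (right). The signs are opposite in 1613 of 1676 genes on the left and in 1643 on the right.

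The exceptions were small in size. The genes with a symbol and the largest differences against the deposited sign, singled out after their values were seen, were RPLP0 (-0.43, or -0.31 without library 18), CHCHD2 (-0.30, or -0.15) and MAF1 (-0.22) on the lower side and MAZ (0.54, or 0.61), EXTL3 (0.45, or 0.20) and EDF1 (0.41, or 0.63) on the higher side. MAF1, a repressor of RNA polymerase III, turned to 0.26 without library 18. MAZ, a zinc-finger transcription factor, had -0.48, -0.22 and -0.31 in libraries 4, 5 and 6 and 0.52, 0.03 and 0.07 in libraries 16, 17 and 18, with no overlap. It also had a difference of 2.25 for Tau-S199E minus Tau-WT, so that its values were higher with S199E in both settings. Its limma adjusted p in the presence of K174Q was 0.513.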

How the data were processed

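The deposited table gives 1676 genes in 12 libraries. Per the submitters' processing notes, STAR 2.5.3a, RSEM 1.2.31, DESeq2 and GRCh38 were used, with no role stated. Values by library are a score, since the authors centred and scaled every gene across the 12 libraries (each row has mean 0 and SD 1). The table also holds the authors' deposited log2 fold change, adjusted p-value and cluster number. No source used here gives the transform before standardising, the filter or the strand setting, and depth is unknown.

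Columns were assigned to constructs by name, and they carry library numbers. Group means were subtracted and tested by gene with limma 3.58.1 (R 4.3.3), ordinary residual variance, 4 construct means over 12 libraries, Benjamini-Hochberg over 1676 genes, threshold 0.05, two-sided. Single values had two-sided exact permutation tests. The z-scores were not rescaled when a library was left out. The fit was tested on simulated data.

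Genes named were MAPT, the 12 largest each way without overlap, the next 8 each way without library 18, up to 2 each way per list with 3 or more genes in the table, and the 6 each way where library 18 lay furthest from libraries 16 and 17, with those said to be named after their values were seen. The text prints the leading genes of each list, and a few named by these rules are not reported here. The comparison and the 27 gene lists were chosen with earlier results of these data known. Genes without a symbol in the table (91) were named from a gene-name table (90) and located with GENCODE 29.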

Additional observations from a re-analysis of the deposited data

Results flagged for a closer look

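The S199E effects with and without K174Q lay apart in 5 values, set against a two-sided exact permutation of the construct labels within each contrast. That permutation takes S199E to have no effect in either setting. A large effect in a single setting can thus give a small p, so the p-values below do not test whether both effects are equal. The difference of the effects, with K174Q minus without, was 2.58 SD units for the mean of cluster 1 (permutation p = 0.025), 2.72 for cluster 2 (permutation p = 0.005), -2.75 for cluster 3 (permutation p = 0.01), -2.63 for cluster 4 (permutation p = 0.015) and 2.37 for MAPT (permutation p = 0.02). Without library 18, a setting added after the data were seen, the differences were 2.98, 3.18, -3.25, -2.95 and 2.48 (permutation p = 0.005 for each cluster, the smallest that these relabelings can give, and permutation p = 0.02 for MAPT). The genes may have been selected on this same difference, so these values describe the table and are not separate evidence for it.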

How the results depend on the processing

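The count of genes called depended on the libraries and on the variance. With all libraries it was 0, with moderated variances 2 and with library weights 978. A fit on the 6 libraries alone called 0 genes (72 at an unadjusted p under 0.05). Leaving out 1 library at a time gave 0 to 142 calls, and only the omission of library 18 gave any. Settings added after the data were seen gave 631 calls without library 18 and with moderated variances (sharing 139 of the 142), 27 without library 18 in a fit on 5 libraries (sharing 11), 451 without libraries 12 and 18 (sharing all 142) and 0 without library 12 alone. The number of genes without overlap was 187 and ranged from 222 to 1195 when 1 library was left out, with 438 without library 6. Smaller groups fail to overlap more often by label order alone, so these counts cannot be set directly against the 187. The cluster and MAPT differences kept their direction under every alternative run.

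Some genes with small differences reversed. Against group means, group medians gave 0.14 for MAF1, -0.22 for TUBB6 and -0.26 for MT-CO3. Leaving out 1 library gave ranges of -0.51 to 0.26 for MAF1, -0.36 to 0.78 for TUBB6, -0.55 to 0.51 for MT-CO3, -0.27 to 0.84 for AEN, -0.021 to 1.06 for MT-ND5, -0.18 to 0.94 for ALDOA and -0.62 to 0.013 for DNMT1. The cause was not tested.

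No paired analysis was possible because the columns carry library numbers and not the replicate numbers of the labels. The z-scores hold no depth or level, so fold sizes, a filter on low values and a count model could not be applied, and every gene was scaled with library 18 included.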
